A study of Sus scrofa with 95 samples.

Results

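Kidney cortex from pigs that had linrodostat and cardiopulmonary bypass was compared with kidney cortex from pigs that had bypass without the drug. Libraries were chosen by their labels: of 95 libraries from 5 organs, 19 were from kidney cortex, and 11 of those made up the comparison. Cardiopulmonary bypass (CPB) hands the work of heart and lungs to a machine, and here the cooled circulation was also arrested for 75 min. The linrodostat arm held 4 pigs (animals 12, 18, 20 and 24), with bypass, arrest and 75 mg of the drug. The CPB arm held 7 pigs (animals 2, 6, 9, 11, 19, 21 and 25), with bypass and arrest and no drug. The 8 control pigs had anesthesia without bypass, arrest or drug, and their levels are given as a background. Control libraries also entered the fit. They took part in the filter on low counts and in the estimate of spread behind each SE, interval and p. All were infant swine of 5 to 10 kg, both sexes were present in each arm, and each kidney library came from a different animal. When the drug was given and how long after bypass the kidneys were taken are not given in the sources used here, and the drug was not given without bypass in any arm.

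Linrodostat inhibits indoleamine 2,3-dioxygenase 1, the enzyme made from IDO1, which opens the ring of tryptophan and so starts the kynurenine pathway. IDO1 is induced by interferon gamma, while TDO2 makes the corresponding enzyme of the liver. Kidney tubule cells carry the later enzymes, which turn kynurenine into other acids and, in part, into nicotinamide adenine dinucleotide (NAD), and kynurenine itself is a ligand of the aryl hydrocarbon receptor. The drug acts on the protein, so messenger RNA levels do not show whether the enzyme was inhibited.

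Levels below are CPM, counts per 1000000 counts, after normalisation between libraries. They are not scaled for gene length, so they compare animals and not genes. Depth, in units of 1000000 counts, was 28.4 to 38.5 in linrodostat kidneys, 25.7 to 37.1 in CPB kidneys and 34.2 to 42.7 in control kidneys, and mitochondrial transcripts took 9.33 to 20.9% of counts in linrodostat kidneys, 9.07 to 19.4% in CPB kidneys and 9.67 to 13.9% in controls. Markers of kidney cortex were present in every library: the endocytic receptor LRP2 of the proximal tubule stood between 376 and 1371 CPM and uromodulin, UMOD, of the thick ascending limb between 2559 and 8958 CPM over all 19. Of 2 liver markers, albumin, ALB, stood apart in a few kidneys. It was at 333 CPM in linrodostat pig 12 and at 0.123 to 0.382 CPM in the other 3 linrodostat kidneys. In CPB kidneys it was at 20.6 CPM in pig 6, 33.9 CPM in pig 9, 7.48 CPM in pig 21 and under 1 CPM in the rest. The other marker, APOA1, did not single out the same CPB kidneys. APOA1 was at 251 CPM in linrodostat pig 12, 154 CPM in CPB pig 6 and 94.2 CPM in CPB pig 9. Its highest value was 271 CPM, in CPB pig 2. Fat cell and adrenal transcripts were low in both bypass arms. Of the fat cell genes, adiponectin, ADIPOQ, reached 0.0956 CPM in linrodostat kidneys and was at 0 in all CPB kidneys. In control pigs 1, 10 and 26 ADIPOQ was at 57.5, 13.0 and 117 CPM. CIDEC was at 0.719 to 1.66 CPM in linrodostat kidneys and at 0.659 to 3.69 CPM in CPB kidneys. Of the adrenal genes, CYP17A1 did not exceed 0.181 CPM and STAR 1.17 CPM in either bypass arm. Control pig 15 stood apart from all others, with interferon-induced genes summing to 12300 CPM against 1085 to 3622 CPM in the other controls. In cortex taken whole, fewer cells of a type and less RNA per cell cannot be told apart.

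No gene separated linrodostat kidneys from CPB kidneys at the threshold used. Of 17653 genes tested by edgeR's quasi-likelihood test, 0 had a Benjamini-Hochberg adjusted p under 0.05 (0%), and the smallest adjusted p was 0.709. At an unadjusted p under 0.05 there were 822 genes (4.66%), of which 493 (2.79%) were higher and 329 (1.86%) lower with linrodostat. That count was 1477 without linrodostat pig 24 and 421 without linrodostat pig 12 and CPB pigs 6 and 9, the kidneys with the most ALB, and 0 genes passed in either case. DESeq2 called 4 genes and limma-voom 0. Log2 fold changes of linrodostat over CPB were above 0 for 49.7% of the genes, with a median of −0.0022. All 4 linrodostat kidneys lay above all 7 CPB kidneys for 45 genes (0.255%) and below all of them for 27 (0.153%).

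The precision of the fold changes differed by gene, and the intervals given here are not adjusted for the number of genes tested. The 95% interval of a log2 fold change had a median half-width of 0.48, and for 11897 genes (67.4%) it lay wholly within a 2-fold change in either direction. The biological coefficient of variation between animals of an arm was 0.365. On the first 2 principal components, which held 20.4 and 14.2% of the variance of the 1000 most variable genes, linrodostat kidneys took values of 8 to 33.7 and −28.1 to 23.9, within the CPB ranges except for the lowest value of the second. CPB kidneys took −5.1 to 36.7 and −24.1 to 26.6, and control kidneys −55.4 to −5.2 and −26.6 to 27.3.

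**Figure D1:**
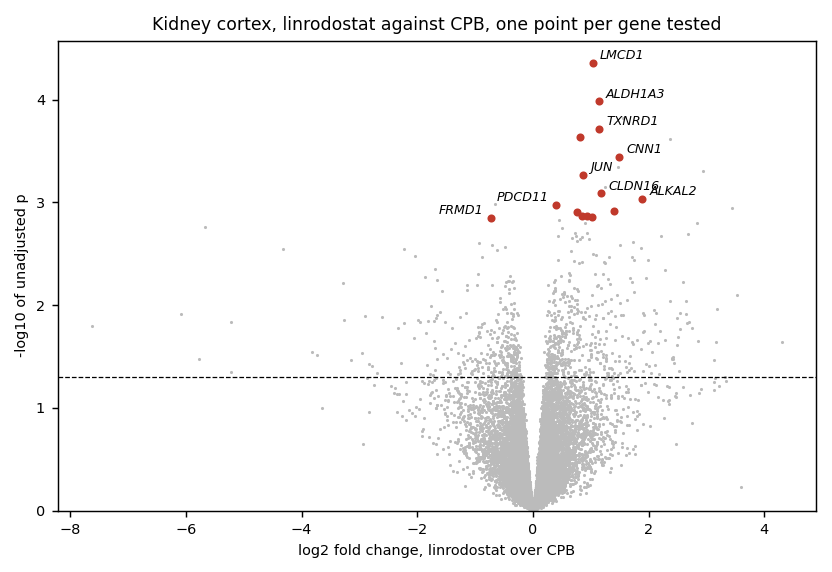
Each point is 1 of the 17653 genes tested in kidney cortex, placed by its log2 fold change of linrodostat over CPB (horizontal) and by the −log10 of its unadjusted p-value in edgeR's quasi-likelihood test (vertical), with a dashed line at the unadjusted threshold of 0.05. The 15 genes of smallest p with a symbol and at least 2 CPM are red, 14 of them to the right of 0, and 0 genes passed after adjustment; points far to the sides are mostly genes of few counts, whose fold change depends on the fit's prior count.

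IDO1, whose enzyme linrodostat inhibits, was a rare transcript in most of these kidneys (ENSSSCG00000007007, Sscrofa11.1 chromosome 17, 9245283 to 9260140). It stood at 0.653, 0.573, 0.234 and 0.0637 CPM in linrodostat pigs 12, 18, 20 and 24, which are 20, 14, 9 and 2 counts. In CPB kidneys it ranged from 0.0424 to 3.63 CPM with a median of 0.635, which spans 1 to 99 counts, and in controls the median was 0.410 CPM with 7.90 CPM in pig 15. The linrodostat values lay inside the CPB range, and the CPB kidneys were spread widely, with pig 19 the highest. The log2 fold change was −1.60 ± 1.10 (SE; unadjusted p = 0.162, adjusted p = 0.998 by edgeR). Its 95% interval, −3.91 to 0.70, held differences in both directions. Without CPB pig 19 the log2 fold change was −0.98.

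The second enzyme of the family, IDO2, overlapped between the bypass arms, and every bypass kidney lay above every control. IDO2 stood at 54.4, 93.4, 67.6 and 48.9 CPM in linrodostat kidneys, against 42.7 to 92.4 CPM (median 66.4) in CPB kidneys and 10.8 to 37.5 CPM in controls. Its log2 fold change of linrodostat over CPB was −0.02 ± 0.30. TDO2 failed the filter on low counts: it had 138 counts (4.51 CPM) in linrodostat pig 12, which also had the most ALB, 0, 3 and 0 counts in the other linrodostat kidneys, and at most 16 counts in a CPB kidney.

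None of the later enzymes of the pathway passed, and the bypass arms overlapped in each one described here. KMO, which hydroxylates kynurenine, was at 61.2, 62.2, 58.1 and 73.6 CPM in linrodostat kidneys, against 48.9 to 101 CPM (median 61.0) in CPB kidneys and 73.7 to 119 CPM in controls. The interval of its log2 fold change ran from −0.45 to 0.27. KYNU, which cleaves kynurenine and its hydroxylated form, was at 14.6, 10.9, 7.99 and 16.3 CPM in linrodostat kidneys and at 11.3 to 21.3 CPM (median 15.1) in CPB kidneys, with a log2 fold change of −0.39 ± 0.22 (unadjusted p = 0.0913, adjusted p = 0.998 by edgeR). HAAO, which opens the ring of hydroxyanthranilate, split the linrodostat kidneys, with 18.1 and 16.6 CPM in pigs 12 and 18 and 57.8 and 60.4 CPM in pigs 20 and 24. CPB kidneys had 25.1 to 103 CPM of HAAO, so the groups overlapped. ACMSD, which draws the intermediate away from NAD synthesis, had 55.0, 26.2, 25.5 and 29.6 CPM in linrodostat kidneys against 23.8 to 51.8 CPM in CPB kidneys.

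Of 15 kynurenine pathway genes, 14 were tested and 0 passed. Of these, 2 had a log2 fold change above 0 and 12 below, with a list median of −0.15, where all genes tested had 49.7% above 0. The 2 above 0 were 6 without linrodostat pig 12 and CPB pigs 6 and 9, 4 without linrodostat pig 18 and 1 without linrodostat pig 20. The kynurenine list median ran from −0.20 to −0.11 over the alternative fits. None of the 14 had an unadjusted p under 0.05 with all libraries. Of 9 tested genes of tryptophan transport and the serotonin route, 0 passed and 1 had an unadjusted p under 0.05: SLC7A5, the large neutral amino acid transporter that carries tryptophan, with a log2 fold change of 0.63 ± 0.22 (unadjusted p = 0.0102). SLC7A5 stood at 64.5, 66.4, 103 and 51.3 CPM in linrodostat kidneys and at 25.6 to 73.9 CPM (median 46.3) in CPB kidneys.

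Genes that the kynurenine pathway feeds were measured next. Of 18 NAD genes 0 passed, with a list median of −0.11 and 6 above 0. NAMPT, the rate-limiting enzyme of NAD salvage, was at 348, 376, 346 and 226 CPM in linrodostat kidneys, against 140 to 294 CPM (median 263) in CPB kidneys and 60.3 to 91.4 CPM in controls. Every kidney of either bypass arm lay above every control, while between the bypass arms the log2 fold change of NAMPT was 0.40 ± 0.19 (unadjusted p = 0.0455, adjusted p = 0.998 by edgeR) and the groups overlapped through linrodostat pig 24. Of 14 aryl hydrocarbon receptor genes 0 passed, with 6 above 0 and a median of −0.0076. The receptor AHR stood at 16.1, 15.3, 26.6 and 16.6 CPM in linrodostat kidneys and 13.9 to 21.9 CPM in CPB kidneys. Its target CYP1A1 was at 4.70, 0.859, 1.72 and 0.0637 CPM in linrodostat kidneys and 0.393 to 4.00 CPM in CPB kidneys, and its repressor AHRR was at 0.490, 1.27, 4.16 and 0.478 CPM against 0.127 to 0.888 CPM in CPB kidneys (log2 fold change 1.66 ± 0.76, unadjusted p = 0.0425). Among the 11 bypass kidneys, linrodostat pig 20 was the highest for both AHR and AHRR, and 1 control was higher still for AHR, at 35.2 CPM.

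**Figure D2:**
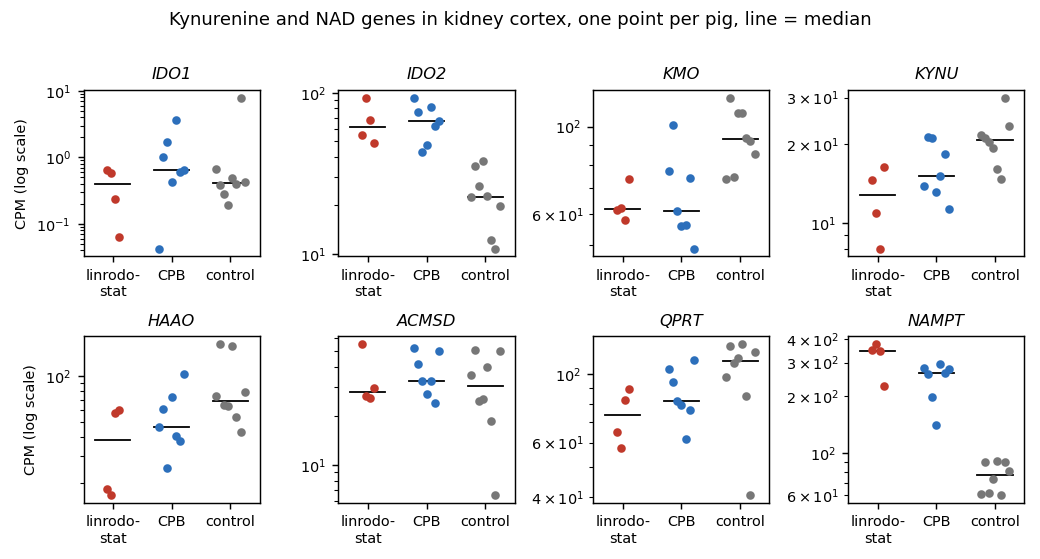
Levels of 8 kynurenine and NAD genes in kidney cortex in CPM on a log axis, 1 point per pig (4 linrodostat, 7 CPB and 8 control), with the median as a line. The linrodostat and CPB points overlap in all 8 panels, while IDO2 and NAMPT stand above the controls in both bypass arms.

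The 15 genes of smallest unadjusted p were described because no gene passed. They were chosen by that p, and their values are a description. Of them, 14 were higher and 1 lower with linrodostat, and for 5 the 4 linrodostat kidneys all lay above the 7 CPB kidneys. Over all genes tested that held for 45 of 17653 (0.255%), and a choice by small p favours such genes. The smallest p was that of LMCD1, a LIM domain cofactor that binds GATA transcription factors (ENSSSCG00000011538, chromosome 13, 64933692 to 64994204). LMCD1 was at 56.0, 70.5, 70.7 and 52.7 CPM in linrodostat kidneys, against 19.4 to 48.6 CPM (median 29.2) in CPB kidneys and 22.6 to 37.2 CPM in controls. Its log2 fold change was 1.03 ± 0.20 (unadjusted p = 4.4e-05, adjusted p = 0.709 by edgeR, 0.0134 by DESeq2). CPB pig 19 was the highest of the CPB kidneys, and without it LMCD1 was the 1 gene to pass with edgeR (adjusted p = 0.0386).

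ALDH1A3, which makes retinoic acid from retinal, overlaps an uncharacterised coding gene in the annotation. It stood at 15.6, 33.4, 19.1 and 13.4 CPM in linrodostat kidneys and at 6.29 to 14.5 CPM (median 8.40) in CPB kidneys, with controls at 7.98 to 12.8 CPM. DESeq2 called it (adjusted p = 0.0254) and edgeR did not (log2 fold change 1.14 ± 0.24, adjusted p = 0.709). TXNRD1, the cytosolic thioredoxin reductase and a target of the oxidative stress factor NRF2, stood at 281, 263 and 296 CPM in linrodostat pigs 12, 18 and 20 and at 122 CPM in pig 24. CPB kidneys had 63.8 to 157 CPM of TXNRD1 (median 99.2) and controls 31.4 to 65.2 CPM, so 3 linrodostat kidneys lay above all CPB kidneys and pig 24 among them (log2 fold change 1.14 ± 0.25, adjusted p = 0.709 by edgeR).

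Both partners of the AP-1 transcription factor JUN and FOSL2 were among the 15. JUN was at 156, 124, 125 and 161 CPM in linrodostat kidneys, against 51.7 to 98.8 CPM (median 86.0) in CPB kidneys and 33.0 to 83.4 CPM in controls. FOSL2 was at 67.0, 61.5, 65.4 and 47.2 CPM in linrodostat kidneys, against 19.3 to 43.1 CPM (median 31.2) in CPB kidneys and 15.8 to 46.7 CPM in controls. For both, the linrodostat kidneys lay above every CPB and every control kidney, and the log2 fold changes were 0.87 ± 0.21 for JUN and 0.93 ± 0.25 for FOSL2 (adjusted p = 0.955 and 0.998 by edgeR).

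CLDN16, the tight junction claudin through which the thick ascending limb takes back magnesium, also separated the bypass arms. It stood at 29.2, 31.8, 25.9 and 34.1 CPM in linrodostat kidneys, against 4.88 to 21.8 CPM (median 12.5) in CPB kidneys. Controls had 7.84 to 28.8 CPM of CLDN16 (median 21.1), which overlapped both. The log2 fold change was 1.18 ± 0.30 (unadjusted p = 0.000814, adjusted p = 0.998 by edgeR). The secreted protease ADAMTS9 was at 41.4, 31.1, 33.4 and 32.1 CPM in linrodostat kidneys and at 16.1 to 30.0 CPM (median 19.6) in CPB kidneys, where pig 2 was the highest.

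For the smooth muscle protein calponin, CNN1, and for the adhesion protein FLRT3, the organic cation transporter SLC22A3, the receptor ligand ALKAL2 and C14orf132, the linrodostat kidneys overlapped the CPB kidneys and also the controls. CNN1 was at 6.47, 19.1, 10.6 and 7.58 CPM in linrodostat kidneys, against 2.34 to 7.07 CPM in CPB kidneys and 4.92 to 14.3 CPM in controls. ALKAL2 was at 6.04, 18.3, 6.24 and 3.76 CPM in linrodostat kidneys, against 0.643 to 5.28 CPM in CPB kidneys and 1.63 to 7.17 CPM in controls. Linrodostat pig 18 was the highest of all 19 kidneys for both. SLC22A3 lies over the plasminogen gene PLG, and FLRT3 within MACROD2, so their counts may hold reads of those genes. IFFO2, an intermediate filament protein, and PDCD11, a ribosome assembly factor, had log2 fold changes of 0.82 ± 0.18 and 0.40 ± 0.10. The 1 gene of the 15 that was lower was FRMD1, a FERM domain protein, at 94.9, 91.9, 103 and 130 CPM in linrodostat kidneys against 128 to 224 CPM (median 174) in CPB kidneys (log2 fold change −0.73 ± 0.20, adjusted p = 0.998 by edgeR).

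**Figure D3:**
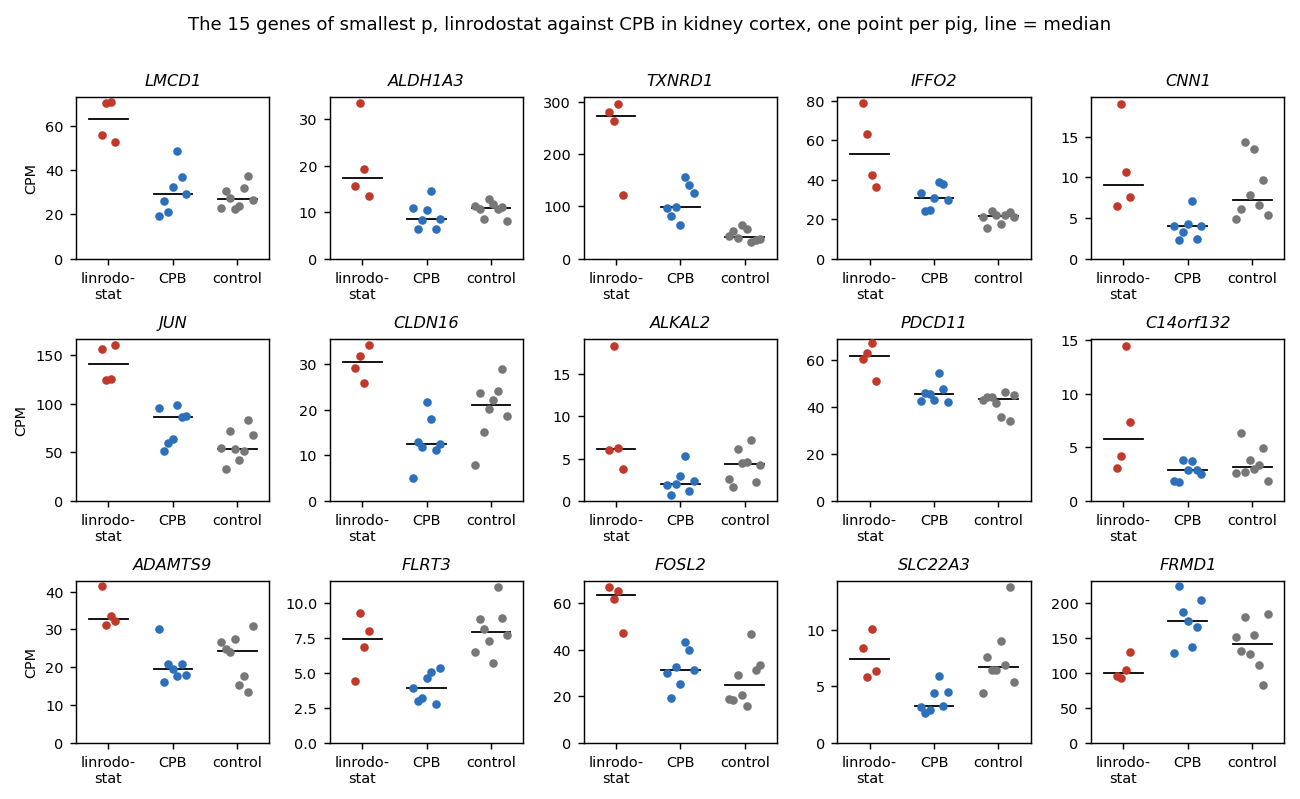
Levels in kidney cortex in CPM of the 15 genes of smallest unadjusted p between the bypass arms, 1 point per pig (4 linrodostat, 7 CPB and 8 control), with the median as a line and each axis starting at 0. In LMCD1, JUN, CLDN16, ADAMTS9 and FOSL2 all 4 linrodostat points lie above all 7 CPB points; 0 of the 15 genes passed after adjustment.

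Gene lists were described by their counts and medians. They were chosen with earlier results of these data known, so their counts are a description and no test. Over all genes tested 49.7% were above 0, the median was −0.0022, and 2.79% were higher and 1.86% lower at an unadjusted p under 0.05. The 493 genes higher at that p also moved with removals, to 806 without linrodostat pig 24 and 721 without CPB pig 19. They were 414 without linrodostat pig 18 and 265 without linrodostat pig 12 and CPB pigs 6 and 9. Of 27 immediate early genes, which cells switch on within minutes of a stimulus, 0 passed, 25 had a log2 fold change above 0 and the list median was 0.56. An unadjusted p under 0.05 with linrodostat higher was found for 12 of the 27, where 2.79% of all genes had one. In JUN, FOSL2 and KLF4 all linrodostat kidneys lay above all CPB kidneys, which held for 0.255% of all genes tested. JUN and FOSL2 were already among the 15 genes chosen by smallest p. KLF4, a zinc finger transcription factor, was at 11.8, 10.2, 15.9 and 12.1 CPM in linrodostat kidneys and at 5.14 to 9.64 CPM in CPB kidneys. The growth regulator MYC was at 92.8, 113, 94.7 and 45.0 CPM in linrodostat kidneys, against 15.5 to 80.2 CPM (median 32.0) in CPB kidneys (log2 fold change 1.08 ± 0.32), and linrodostat pig 24 overlapped the CPB kidneys. FOSL1, another AP-1 partner, stood above the controls in every bypass kidney, with 25.9, 43.2, 18.2 and 4.30 CPM in linrodostat kidneys, 2.37 to 31.7 CPM in CPB kidneys and 0.0510 to 0.957 CPM in controls. The count of 12 was 6 without linrodostat pig 18, and 4 without linrodostat pig 12 and CPB pigs 6 and 9, which had the most ALB. The median of the immediate early genes was then 0.31.

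Of 16 IL6 and STAT3 response genes 0 passed, 16 had a log2 fold change above 0, where 49.7% of all genes did, and the median was 0.45. Of these, 6 had an unadjusted p under 0.05, where 2.79% of all genes were higher at that p, among them the transcription factor CEBPD, the survival protein MCL1, the feedback inhibitor SOCS3 and the fibrinogen chain FGG. CEBPD was at 709, 963, 479 and 363 CPM in linrodostat kidneys, against 123 to 528 CPM (median 363) in CPB kidneys and 90.7 to 283 CPM in controls. FGG was at 129, 31.2, 19.6 and 3.03 CPM in linrodostat kidneys and at 7.50 to 16.5 CPM in CPB kidneys, and its highest value was in pig 12, the kidney with the most ALB. The count of 6 was 2 without linrodostat pig 18, 10 without linrodostat pig 24 and 0 without linrodostat pig 12 and CPB pigs 6 and 9. Among all genes, the 493 higher at that p were 414, 806 and 265 under the same removals in turn. The part of liver RNA in the values of this list was not tested beyond those removals.

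Of 23 genes of the integrated stress response, by which cells slow translation and switch on amino acid genes, 0 passed, 17 were above 0 and the median was 0.23. ATF3, TRIB3, CHAC1, ASNS and SLC7A11 had an unadjusted p under 0.05. TRIB3, a pseudokinase induced by ATF4, was at 9.57, 11.0, 7.47 and 3.38 CPM in linrodostat kidneys, against 1.67 to 5.60 CPM (median 3.15) in CPB kidneys and 0.408 to 2.31 CPM in controls. ASNS, asparagine synthetase, was at 13.0, 30.2, 32.4 and 10.6 CPM in linrodostat kidneys and at 8.14 to 20.0 CPM in CPB kidneys. In the integrated stress response list these 5 genes were 3 without linrodostat pig 18, 9 without linrodostat pig 24 and 8 without CPB pig 19, and the median was 0.11 without linrodostat pig 12 and CPB pigs 6 and 9. Among all genes, the 493 higher at that p were 414, 806 and 721 without those single kidneys in turn. Of 15 unfolded protein response genes 0 passed and 6 were above 0, with a median of −0.11.

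Among 20 NRF2 targets and metallothioneins 0 passed, 17 were above 0 and the median was 0.28. TXNRD1, the glutamate-cysteine ligase subunit GCLC and the cystine carrier SLC7A11 had an unadjusted p under 0.05, and these 3 genes were 1 without linrodostat pig 12 and CPB pigs 6 and 9, when the median of the NRF2 targets and metallothioneins was 0.078 with 13 of 20 above 0. HMOX1, heme oxygenase, ranged widely within each bypass arm. It was at 5575, 3505, 4806 and 628 CPM in linrodostat pigs 12, 18, 20 and 24, against 252 to 4223 CPM (median 1660) in CPB kidneys and 42.3 to 333 CPM in controls. The log2 fold change was 0.86 ± 0.63 with an interval of −0.47 to 2.19 (adjusted p = 0.998 by edgeR). NQO1 and SRXN1, 2 further targets, had log2 fold changes of 0.51 ± 0.46 and 0.27 ± 0.34, and GCLC was at 314, 237, 443 and 276 CPM in linrodostat kidneys against 114 to 366 CPM (median 177) in CPB kidneys. Hemoglobin RNA, HBB, was at 509, 156, 17.04 and 19.9 CPM in linrodostat kidneys and at 8.16 to 147 CPM in CPB kidneys, and its part in the heme genes was not tested.

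Of 19 heat shock genes 0 passed and 18 were above 0, with a median of 0.20. HSPA8, the constitutive chaperone, was at 1205, 1612, 959 and 452 CPM in linrodostat kidneys, against 509 to 831 CPM (median 653) in CPB kidneys. Linrodostat pig 24 was the lowest of all 11 for HSPA8, and the other 3 were the highest.

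**Figure D4:**
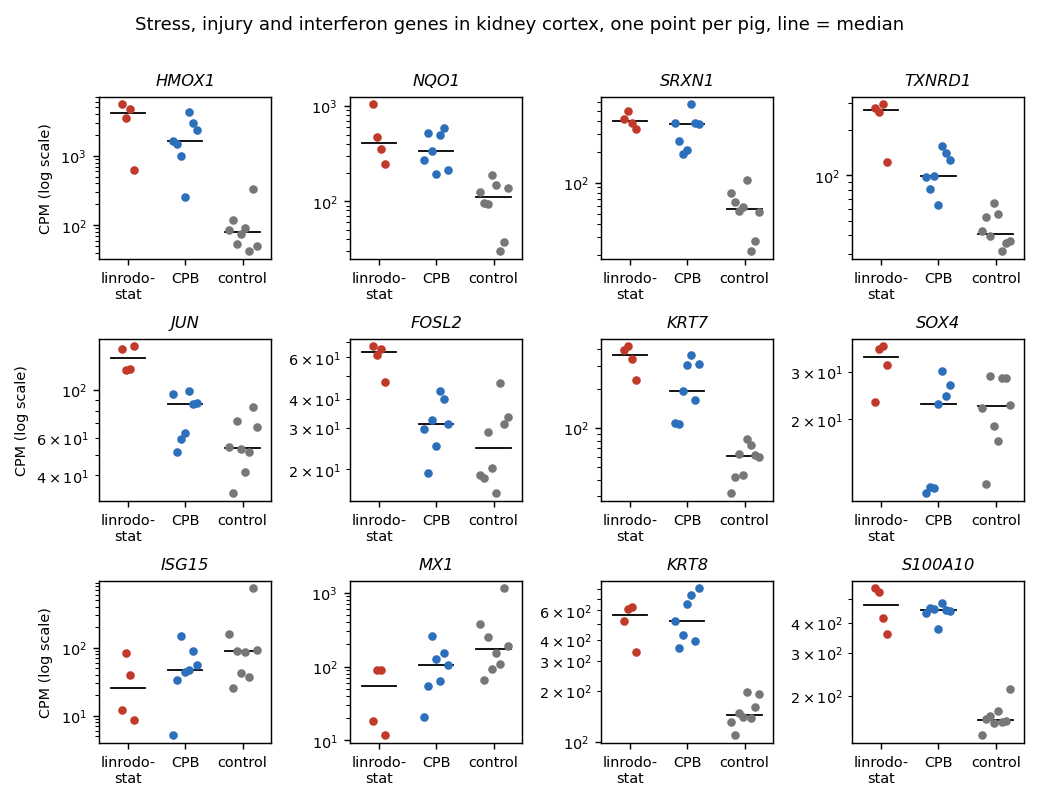
Levels of 12 stress, injury and interferon genes in kidney cortex in CPM on a log axis, 1 point per pig (4 linrodostat, 7 CPB and 8 control), with the median as a line. JUN and FOSL2 separate the linrodostat from the CPB kidneys; HMOX1 and TXNRD1 have linrodostat pig 24 below the other 3; and KRT8 and S100A10 stand above all controls in both bypass arms and overlap between them.

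Interferon genes had fold changes in the other direction and did not pass. Of 26 type I interferon genes 0 passed and 0 had an unadjusted p under 0.05 in either direction. The log2 fold change was below 0 for 26, where 49.7% of all genes were above 0, and the median was −0.79. All were read in the same 11 bypass kidneys, so the shared direction is not 26 separate observations. Their levels varied over a wide range within each arm: summed over the list they were 626, 1386, 1362 and 590 CPM in linrodostat kidneys, 554 to 3090 CPM (median 1524) in CPB kidneys and 1085 to 12300 CPM in controls. The antiviral GTPase MX1 was at 18.5, 89.1, 90.6 and 11.7 CPM in linrodostat kidneys, against 20.4 to 261 CPM (median 104) in CPB kidneys and 65.7 to 1162 CPM in controls. Its log2 fold change was −1.09 ± 0.80 with an interval of −2.77 to 0.59. OAS2, which makes the activator of an RNA-cutting enzyme, was at 40.9, 52.3, 172 and 47.8 CPM in linrodostat kidneys and at 40.2 to 448 CPM (median 189) in CPB kidneys. Linrodostat pigs 12 and 24 and CPB pig 2 were at the low end of the list sums. The highest linrodostat sum, 1386 CPM, lay below the CPB median of 1524 CPM. The list median was −1.25 without linrodostat pig 18, −0.52 without CPB pig 9 and −0.30 without linrodostat pig 12 and CPB pigs 6 and 9.

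Of 22 interferon gamma and antigen presentation genes 0 passed, 21 were below 0, where 49.7% of all genes were above 0, and the median was −0.26. That median was −0.65 without linrodostat pig 18, −0.39 without CPB pig 2, −0.11 without CPB pig 9, −0.076 without linrodostat pig 24, with 7 above 0, and −0.053 without linrodostat pig 12 and CPB pigs 6 and 9. The chemokine CXCL10 was at 29.5, 222, 13.9 and 10.2 CPM in linrodostat kidneys and at 12.4 to 154 CPM in CPB kidneys, so that linrodostat pig 18 was above all CPB kidneys and linrodostat pig 24 below them. Of 21 NF-kB and cytokine genes 0 passed and 15 were above 0, with a median of 0.15, which turned to −0.023 with 10 of the 21 above 0 without linrodostat pig 18, and reached 0.28 without linrodostat pig 12. TNF was at 0.494 to 0.980 CPM in linrodostat kidneys and at 0.636 to 2.45 CPM in CPB kidneys, and IL6 at 0.924 to 1.72 CPM in linrodostat kidneys and at 0.297 to 1.60 CPM in CPB kidneys.

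Of 22 tubule injury genes tested 0 passed, 19 had a log2 fold change above 0 and the median was 0.44, but 0.16 with 15 of the 22 above 0 without linrodostat pig 18. An unadjusted p under 0.05 with linrodostat higher was found for 4 of the 22, against 2.79% of all genes. Among these, keratin 7, KRT7, had a log2 fold change of 0.65 ± 0.31, the transcription factor SOX4 one of 0.71 ± 0.29 and the scaffold protein AKAP12 one of 0.55 ± 0.25. SOX4 was at 23.3 to 37.2 CPM in linrodostat kidneys, against 10.7 to 30.1 CPM (median 22.9) in CPB kidneys and 11.5 to 28.9 CPM in controls, and the arms overlapped. The count of 4 was 9 without linrodostat pig 24, 8 without CPB pig 19, 2 without linrodostat pig 20, 2 without CPB pig 6, 1 without linrodostat pig 18 and 0 without linrodostat pig 12 and CPB pigs 6 and 9. Among all genes, the 493 higher at that p were 806, 721, 441, 396, 414 and 265 under the same removals in turn.

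For the other injury genes described here the bypass arms also overlapped. Keratin 8, KRT8, was at 522, 609, 624 and 341 CPM in linrodostat kidneys, against 361 to 813 CPM (median 522) in CPB kidneys and 109 to 197 CPM in controls, with an interval of −0.57 to 0.38. S100A10, the annexin partner, was at 554, 532, 416 and 361 CPM in linrodostat kidneys, against 378 to 482 CPM (median 449) in CPB kidneys and 138 to 214 CPM in controls, with an interval of −0.20 to 0.34. For both, every bypass kidney lay above every control. LCN2, the neutrophil gelatinase-associated lipocalin used as a urine marker of acute kidney injury, was at 16.9, 44.7, 25.3 and 12.3 CPM in linrodostat kidneys, 9.17 to 24.5 CPM in CPB kidneys and 9.43 to 28.6 CPM in controls (log2 fold change 0.59 ± 0.34, adjusted p = 0.998 by edgeR). Osteopontin, SPP1, was at 2044, 4715, 1912 and 996 CPM in linrodostat kidneys and at 914 to 2264 CPM (median 1343) in CPB kidneys, so that linrodostat pig 18 lay above all others. HAVCR1 was not analysed here.

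No gene of a nephron segment passed between the bypass arms. Of 28 proximal tubule genes 0 passed, 0 had an unadjusted p under 0.05, 11 were above 0 and the median was −0.09, with 16 above 0 and a median of 0.052 without linrodostat pig 18. Of 28 genes of the loop, distal tubule and collecting duct 0 passed and 12 were above 0, with a median of −0.05, which was 0.070 without linrodostat pig 18. CLDN16 and the potassium channel KCNJ1 were higher, and HSD11B2, the enzyme that shields the mineralocorticoid receptor from cortisol, was lower at an unadjusted p under 0.05. HSD11B2 was at 114, 125, 117 and 189 CPM in linrodostat kidneys, against 113 to 324 CPM (median 232) in CPB kidneys and 138 to 552 CPM in controls (log2 fold change −0.74 ± 0.32, unadjusted p = 0.0320). The sodium chloride carrier SLC12A1 of the same limb as CLDN16 had a log2 fold change of 0.53 ± 0.38 and UMOD one of 0.12 ± 0.28. Of 12 podocyte genes 0 passed, with 8 above 0 and a median of 0.04, which was −0.14 without linrodostat pig 12 and CPB pigs 6 and 9.

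Markers of other cell types were counted in the same way. Of 18 fibroblast, pericyte and smooth muscle genes 0 passed, 15 were above 0 and the median was 0.32, with CNN1, smooth muscle actin ACTA2 and transgelin TAGLN at an unadjusted p under 0.05. ACTA2 was at 196, 334, 653 and 309 CPM in linrodostat kidneys, against 46.8 to 251 CPM (median 159) in CPB kidneys and 214 to 871 CPM (median 432) in controls, so 3 of the 4 linrodostat kidneys and 3 of the 7 CPB kidneys lay within the control range. In this list those 3 genes were 1 without linrodostat pig 20, when the median was 0.14 with 10 of the 18 above 0, and 6 without CPB pig 11; the median was 0.18 without CPB pig 6. Of 19 monocyte and macrophage genes, 20 T and NK cell genes and 12 B and plasma cell genes 0 passed and 0 had an unadjusted p under 0.05, with medians of −0.06, 0.07 and −0.23. These medians moved with single kidneys: with 1 library left out the monocyte and macrophage median ran from −0.34 (without linrodostat pig 18) to 0.14 (without linrodostat pig 24), and the T and NK cell median from −0.64 (without linrodostat pig 18) to 0.46 (without CPB pig 19). The B and plasma cell median ran from −0.83 (without linrodostat pig 18) to −0.029 (without CPB pig 11). Of 9 neutrophil genes tested 0 passed and 7 were above 0, with a median of 0.58 that turned to −0.096 without linrodostat pig 12. Summed over the list they were 16.8 to 41.9 CPM in linrodostat kidneys, 16.4 to 37.4 CPM in CPB kidneys and 16.6 to 51.3 CPM in controls. The myeloperoxidase gene MPO did not exceed 0.382 CPM in either bypass arm.

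**Figure D5:**
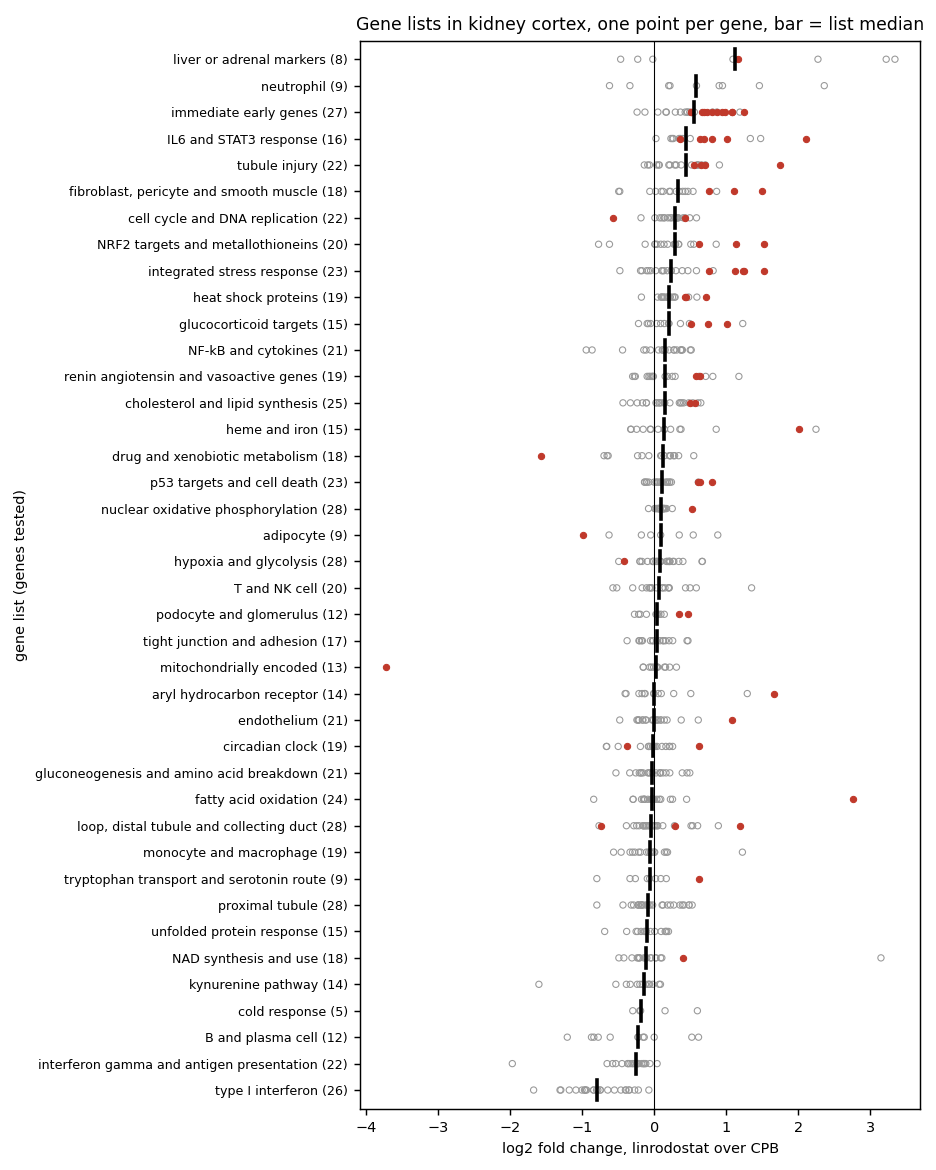
Log2 fold changes of linrodostat over CPB in kidney cortex for the tested genes of 40 lists, 1 point per gene, filled red where the unadjusted p was under 0.05, with the list median as a bar; ADIPOQ, at 0 in all CPB kidneys, is in its list's median and not drawn. Neutrophil, immediate early, IL6 and STAT3 and tubule injury lists have medians of 0.44 to 0.58, the liver or adrenal markers have 1.13 (−0.35 without linrodostat pig 12) and the type I interferon list has −0.79. The neutrophil median turns to −0.096 without linrodostat pig 12 and the tubule injury median falls to 0.16 without linrodostat pig 18, while 0 genes of any list passed after adjustment.

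Whether the kidney differed from other organs in its response to the drug was tested on all 95 libraries. The linrodostat minus CPB difference in kidney was set against the mean of that difference in heart, ileum, liver and lung. It passed for 0 of 20321 genes by edgeR (0%), and also for 0 with the animal as a replicate block. At an unadjusted p under 0.05 there were 546 genes without the block and 644 with it. The smallest p without the block was that of ALKAL2 (adjusted p = 0.547 by edgeR). Its log2 fold change was 1.89 in kidney, 0.17 in ileum, 0.15 in liver and −0.25 in lung. ALKAL2 failed the filter on low counts in heart, so no size is given for its difference from the mean of all 4. LMCD1 had a difference of 0.97 ± 0.29 and TXNRD1 one of 1.21 ± 0.36, both with an adjusted p of at least 0.976. ALKAL2, LMCD1 and TXNRD1 were among the 15 genes of smallest p in kidney, so their kidney fold changes are large by that choice. In the liver, where 119 of 15406 genes passed for linrodostat against CPB (0.772%), 85 of those genes were also tested in kidney. In kidney 0 of the 85 passed, 47 were above 0 and 6 had an unadjusted p under 0.05. Of all genes tested in kidney, 49.7% were above 0 and 4.66% had such a p. The median log2 fold change of the 85 was 0.08 in kidney and 2.88 in liver. These genes were chosen by passing in liver, so the liver median is large by that choice and the 2 medians are no test of a difference. Chosen after these values were seen, a test of kidney against liver alone passed 6 of 20321 genes, and with the animal as a block it passed 1.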

How the data were processed

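Per the labels, messenger RNA libraries (Tecan Universal Plus) were read as pairs of 150 bp. Values are expected counts for each Ensembl gene, deposited by the authors as a single table on Sscrofa11.1. STAR and Salmon, after trimming with Trim Galore and cutadapt, appear in the submitters' processing notes, without versions. Which program made the counts, the annotation release and the use of strand are not given in the sources used here, so overlapping genes may share counts.

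Counts were rounded (92.9 to 95.1% of a kidney library's values were whole) and fitted in R 4.3.3 with edgeR 4.0.16: filterByExpr, TMM, and a robust quasi-likelihood F test over all 19 kidney libraries, Benjamini-Hochberg over all genes tested, threshold 0.05, 2-sided. Each library was 1 animal, and no 2 libraries of an arm were copies. The other organs' fits were made alike. Animal numbers mark the same pig in each organ, and the animal was a block in an alternative fit of the test between organs. Alternatives were relative log expression factors, no filter, sex, 11 libraries only, DESeq2 1.42.0, limma 3.58.1 voom, and each library left out. The fits were tested on simulated data. Those data had a smaller spread between animals than the common estimate here, and only genes of higher counts were changed in them. They do not show which changes this comparison could detect.

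Named genes were the 15 of smallest p with a symbol and at least 2 CPM, because fewer than 20 passed, and a panel of 14, of which 13 were in the table. The 40 lists ask for 797 genes, of which 736 were in the table and 720 tested, and 26 are in more than 1 list. The members and lists were chosen with earlier results of these data known. Positions are from RefSeq on Sscrofa11.1, matched by symbol. Symbols are the table's own, and 5 list symbols differ in the gene ID table. Some genes of the lists are counted and not reported by name here. Intervals are 95% confidence intervals of a log2 fold change, with the spread between animals estimated over all 19 kidney libraries. They are not ranges of the animals.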

Additional observations from a re-analysis of the deposited data

Results flagged for a closer look

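Values were examined in 81 groups of 1 gene in 1 arm, and in 6 of them 1 kidney stood far from the others of its arm. Chance flags about 1 in 20 groups. In linrodostat pig 24, TXNRD1 was low at 122 CPM, where the next linrodostat kidney had 263 CPM, and NAMPT was low at 226 CPM, where the next had 346 CPM. In linrodostat pig 20, AHR was high at 26.6 CPM, where the next had 16.6 CPM. In CPB pig 2, ADAMTS9 was high at 30.0 CPM, where the next CPB kidney had 20.9 CPM. In CPB pig 11, S100A10 was low at 378 CPM, where the next had 438 CPM. In control pig 15, IDO1 was high at 7.90 CPM, where the next control had 0.660 CPM. Without linrodostat pig 24, 1477 genes had an unadjusted p under 0.05 in kidney in place of 822, and 0 passed after adjustment with edgeR.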

How the results depend on the processing

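The count of genes that passed in kidney was 0 with edgeR under relative log expression factors, no filter, sex as a covariate (smallest adjusted p 0.082, LMCD1) or 11 libraries only, at an adjusted p under 0.1, and with limma-voom. It was 4 with DESeq2 (ADIPOQ, LMCD1, ENSSSCG00000035583 and ALDH1A3) and 0 to 1 with each library left out, the 1 being LMCD1 without CPB pig 19. ADIPOQ was at 0 in all CPB kidneys and at most at 0.0956 CPM with linrodostat, and it met the filter on low counts through control kidneys. Genes at an unadjusted p under 0.05 were 822 in kidney, 1796 without the filter, which tests more genes, 421 without linrodostat pig 12 and CPB pigs 6 and 9 (added after the liver transcripts were seen), and 624 to 1477 with each library left out. IDO1 kept its direction, at −2.01 to −0.98, and did not pass under any alternative. Small changes turned round: KMO to 0.055 and CYP1A1 to −0.44 without those 3 kidneys, S100A10 there to −0.0019, and CYP1A1 to −0.45 with limma-voom. With each library left out the fold changes (log2) spanned −0.16 to 0.038 for KMO, −0.13 to 0.18 for AHR, −0.78 to 0.74 for CYP1A1, −0.19 to 0.066 for KRT8 and −0.024 to 0.17 for S100A10. The test of kidney against other organs passed 0 genes under each alternative. The test against liver, 6 genes, passed 1 with the animal as a replicate block, 1 without the filter and 0 to 14 with each animal left out. The cause of these shifts was not tested. The intervals above are for single genes, are not adjusted, and do not mark which changes 4 linrodostat pigs could show. LMCD1, with an interval of 0.62 to 1.45, did not pass with all libraries (adjusted p = 0.709 by edgeR).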

Other observations

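Some gene groups outside the account above had members at an unadjusted p under 0.05, with 0 genes passing. Among 21 endothelial genes, THBD, the thrombin receptor of vessel walls, was at 80.6, 38.6, 77.5 and 50.6 CPM in linrodostat kidneys, against 24.6 to 37.3 CPM in CPB kidneys and 12.1 to 116 CPM in controls, and the bypass arms did not overlap (log2 fold change 1.07 ± 0.44). The endothelium list's median was −0.01, with 10 of 21 above 0, and −0.21 with 3 above 0 without linrodostat pig 20. Among 19 renin, angiotensin and vasoactive genes the nitric oxide synthases NOS2 and NOS3 had log2 fold changes of 0.57 ± 0.22 and 0.63 ± 0.28. Of 25 cholesterol and lipid synthesis genes 19 were above 0 with a median of 0.14, which was 0.016 with 14 above 0 without linrodostat pig 20. Of these 2 were higher at an unadjusted p under 0.05, but 0 without linrodostat pig 18, 5 without linrodostat pig 24, 4 without CPB pig 9, 9 without CPB pig 19 and 0 without linrodostat pig 12 and CPB pigs 6 and 9. Among all genes, the 493 higher at that p were 414, 806, 464, 721 and 265 under the same removals in turn. IDI1, an isomerase of the route, had 0.56 ± 0.22.

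In the circadian clock list of 19 genes 1 was higher and 1 lower at an unadjusted p under 0.05, and 8 were above 0. The higher one, NFIL3, a repressor of D-box genes, was at 37.8, 38.8, 26.0 and 22.5 CPM in linrodostat kidneys, against 13.8 to 27.6 CPM in CPB kidneys (log2 fold change 0.62 ± 0.20, unadjusted p = 0.00483, adjusted p = 0.998 by edgeR). The list's median was −0.02. Of 28 nuclear genes of oxidative phosphorylation 27 were above 0, with small changes and a median of 0.10, but 15 were above 0 with a median of 0.0050 without linrodostat pig 18. Cytochrome c, CYCS, was at 276, 286, 176 and 187 CPM in linrodostat kidneys and at 153 to 173 CPM in CPB kidneys. Of 22 cell cycle genes 20 were above 0, with a median of 0.28, but 11 were above 0 with a median of 0.0048 without linrodostat pig 18. At an unadjusted p under 0.05, cyclin D1, CCND1, was higher at 0.43 ± 0.20 and the mitotic kinase AURKB lower at −0.58 ± 0.27. The mitochondrial gene ATP8, at −3.73 ± 1.59, was at 10.8 to 83.4 CPM in linrodostat kidneys and at 8.93 to 2969 CPM in CPB kidneys, where the median was 13.4 CPM.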
